A study of Mus musculus with 2 samples.

Results

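Skeletal and limb homeobox genes were examined in a genome-wide map of histone H3 trimethylated at lysine 27 (H3K27me3) from mouse chondrocytes. The 9 genes were Msx1, Msx2, Alx1, Alx4, Prrx1, Prrx2, Shox2, Pitx1 and Barx1. They were chosen by name, out of 21887 protein-coding genes, as homeobox genes that act in the mesenchyme of the limb and face, and a gene counted as marked when the authors' annotation placed a peak within 5 kb of it. The chondrocytes were wild type and came from the rib cartilage of newborn CD1 mice, released with collagenase and cultured overnight in medium with bovine serum, and no cells were treated. The study set 1 library of chromatin precipitated with an H3K27me3 antibody (ChIP) against 1 library of input DNA from chromatin that was not precipitated. The libraries were assigned by their titles, because the antibody tags of both contradict the titles (H3K27me3 is written for the input, and input for the precipitated DNA). Neither group was replicated, and so the values below carry no replicate error and no test, and the few intervals given cover counting error only. The labels do not give the number or sex of the animals.

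H3K27me3 is laid down by Polycomb repressive complex 2 and accompanies silent chromatin. In embryos it is well known for covering the genes of developmental regulators in the tissues where they are not used. Homeobox genes encode transcription factors that bind DNA through a homeodomain, and those examined here pattern mesenchyme before and during skeleton formation. Msx1 and Msx2 act downstream of bone morphogenetic protein signals in limb buds, teeth and skull. Prrx1 and Prrx2 mark early limb and facial mesenchyme, Shox2 shapes the upper limb segment, Pitx1 specifies the hindlimb, Alx1 and Alx4 pattern the face and skull, and Barx1 acts in facial and stomach mesenchyme.

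The filtered libraries held 17237574 ChIP and 17004082 input tags. A peak has 3 values here. Its pileup is the depth of ChIP fragments averaged along it, its fold enrichment compares the pileup with the input background, and its q-value is a false discovery rate, computed back from the −log10 value that the peak caller averaged over the peak. The list held 19359 peaks. Their median width was 1.27 kb, their fold enrichment had a median of 3.16, and their lowest pileup was 9.86. The identity of the cells was checked on this list only through peaks. None of 6 chondrocyte genes (Sox9, Col2a1, Acan, Col9a1, Col11a1 and Matn1) was marked, beside 20.7% of protein-coding genes. Of 10 genes of other cell types, Col1a1, Myod1, Myf5 and Ptprc were marked, and Postn, Runx2, Sp7, Bglap, Pecam1 and Cdh5 were not. A peak list gives no RNA level, so this does not show which cells were present.

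Most of the homeobox genes carried H3K27me3 peaks of at least 10 kb in sum, while 3 stood apart. Of the 9 genes, 7 had a peak, against 20.7% of protein-coding genes. Alx1 and Prrx1 had none, and Prrx2 had a single peak at the lowest pileup of the list. The 7 genes held 13 peaks with 141.7 kb in all, and 84.8% of this length lay in 7 peaks of 10 kb or more at Msx1, Msx2, Shox2, Pitx1 and Barx1. A summed peak length of at least 10 kb was reached by 6 of the 9 genes, against 4.57% of protein-coding genes and 22.1% of the marked ones. At least 1 single peak of 10 kb or more was present at 5 genes, against 2.63%. A peak overlapped the gene body at 7 of the 9 by the deposited gene records, against 14.2%. Limited to peaks of at least 1 kb, 6 genes stayed marked (17.0% of protein-coding genes). With a q-value of at most 0.01 the number was 6 (5.9%), and at 3.5-fold enrichment or more it was 5 (5.35%).

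The summed peak length per gene was 31.9 kb at Barx1, 31.3 kb at Pitx1, 25.8 kb at Msx2, 21.4 kb at Msx1, 17.6 kb at Shox2, 13.2 kb at Alx4, 0.478 kb at Prrx2 and 0 at Alx1 and Prrx1. Among the 4535 marked protein-coding genes the median was 3.75 kb, and Barx1 exceeded 96.5% and Alx4 84.2% of these genes. Without replicates, neighbours in this order cannot be told apart. The order also depends on the reach: limited to peaks that overlap the gene body, Barx1 fell to 10.7 kb, behind Pitx1 (31.3 kb), Msx2 (25.8 kb), Msx1 (15.8 kb) and Shox2 (15.2 kb). It depends on the peak filter too. At a q-value of at most 0.01 Msx2 fell to 14.3 kb, behind Msx1 (21.4 kb) and Shox2 (17.6 kb).

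**Figure D1:**
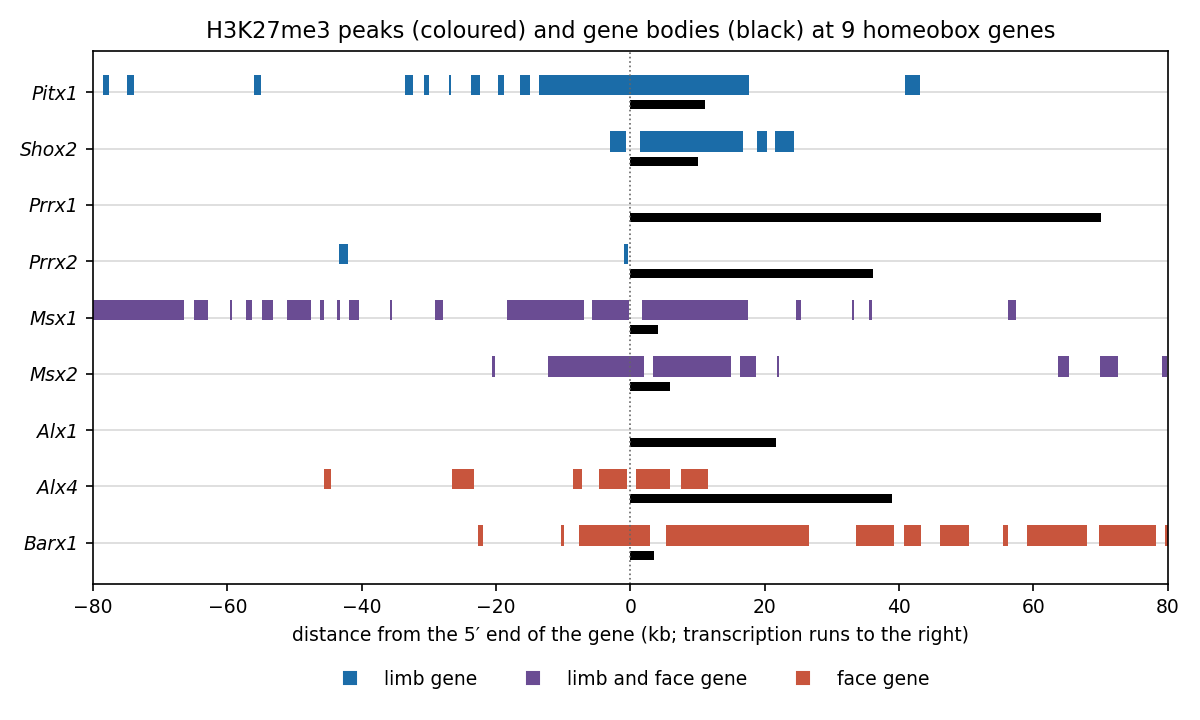
Map of H3K27me3 peaks (coloured bars, by expression domain of the gene) and gene bodies (black bars) within 80 kb of the 5′ end of each of the 9 genes, in kb, placed by the RefSeq gene table and oriented so that transcription runs to the right. The strand of Alx1 was not given in the tables used, so it is drawn from its lower coordinate. Peaks cover or flank the 5′ end of Pitx1, Shox2, Msx1, Msx2, Alx4 and Barx1, and none lies near Prrx1 or Alx1.

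Both Msx genes lay in domains that extended beyond the gene on either side. By the deposited records, to which all gene positions below refer unless the RefSeq gene table is named, Msx1 (ENSMUSG00000048450) lies on chromosome 5 from 37820486 to 37824583 on the minus strand of GRCm38. Its first peak (chr5:37807032-37822879, 15.8 kb) covered the 3′ part of the gene at 3.71-fold, with a pileup of 13.42 and a q-value of 0.00322. The second (chr5:37824751-37830277, 5.53 kb) began 168 bp upstream of the gene, with a pileup of 13.95 and a fold enrichment of 3.47. The start of Msx1 therefore fell into an interval of 1871 bp between these peaks. A further peak of 11.5 kb (chr5:37831526-37842989) followed upstream, beyond the reach of 5 kb.

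Msx2 (ENSMUSG00000021469, chromosome 13, 53466882 to 53473074, minus strand) also had a pair of peaks, arranged differently. One (chr13:53470744-53485033, 14.3 kb, 3.43-fold, pileup 12.88) covered the start of the gene, and the other (chr13:53457859-53469412, 11.6 kb, 3.37-fold, pileup 12.33) covered its 3′ part. The interval between them lay inside Msx2, so its promoter was under a peak. The lower of its q-values was 0.00919, against 0.00322 at Msx1. The 250 bases before each start are shown from RefSeq (GRCm38.p6), 5′ to 3′ on the minus strand, since the mark differs over them. At Msx1 (chr5:37824586-37824835) 85 bases lay under a peak, and at Msx2 (chr13:53472781-53473030) all 250. The window of Msx2 lies before its RefSeq start but inside the gene by the deposited record. Capitals mark each CG dinucleotide, the site of DNA methylation and a mark of CpG islands.
Msx1: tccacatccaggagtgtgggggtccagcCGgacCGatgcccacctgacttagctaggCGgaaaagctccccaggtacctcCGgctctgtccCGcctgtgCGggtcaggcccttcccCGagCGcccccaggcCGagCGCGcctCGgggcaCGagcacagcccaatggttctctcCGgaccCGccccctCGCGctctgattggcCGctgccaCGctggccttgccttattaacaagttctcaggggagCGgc
Msx2: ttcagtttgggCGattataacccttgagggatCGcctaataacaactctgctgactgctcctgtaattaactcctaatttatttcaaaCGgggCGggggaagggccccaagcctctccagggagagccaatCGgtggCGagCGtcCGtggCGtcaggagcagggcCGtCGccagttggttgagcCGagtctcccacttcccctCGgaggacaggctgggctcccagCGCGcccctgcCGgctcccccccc
These hold 20 and 16 CG dinucleotides, against a median of 10 over 21263 promoters of protein-coding genes.

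Among the genes assigned here to the limb, Pitx1 and Shox2 were broadly marked and the Prrx pair was not. Pitx1 (ENSMUSG00000021506, chromosome 13, 55825055 to 55836192, minus strand) lay entirely under 1 peak of 31.3 kb (chr13:55818493-55849815), the widest at any of the 9 genes and wider than 99.7% of all peaks. Its fold enrichment was 3.64, its pileup 13.70 and its q-value 0.00334. The peak reached 13.6 kb upstream of the start of Pitx1, and it continued past the end of the gene.

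Shox2 (ENSMUSG00000027833, chromosome 3, 66971728 to 66981771, minus strand) lay for the most part under 15.2 kb of peak (chr3:66965031-66980263, 3.70-fold, pileup 13.77) and had a further 2.37 kb upstream (chr3:66982392-66984764). The upstream peak had the highest fold enrichment at any of the 9 genes (3.89, above 99.4% of all peaks) and the lowest q-value (0.00139). The start of Shox2 lay between them, in an interval of 2128 bp. The annotation joined both peaks to Rsrc1 as well, a gene for a splicing-related protein whose start in the gene table lies within Shox2, so Rsrc1 counts as marked through them. The interval holds the promoter of Shox2 (chr3:66981772-66982021, minus strand), with 11 CG dinucleotides, and the nearest peak began 370 bp away.
Shox2: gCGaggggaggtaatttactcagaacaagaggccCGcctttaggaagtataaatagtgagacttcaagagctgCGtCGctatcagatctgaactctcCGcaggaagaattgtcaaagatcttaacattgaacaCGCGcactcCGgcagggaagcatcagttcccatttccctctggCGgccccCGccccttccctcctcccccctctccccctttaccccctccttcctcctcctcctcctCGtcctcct

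Prrx1 had no peak within 100 kb. It spans 70.0 kb of chromosome 1 (163245119 to 163315145 in the gene table), and the nearest peak, of 536 bp with a pileup of 10.27, lay 322 kb away. Having no peak within 100 kb was common, at 43.1% of protein-coding genes. Prrx2 (ENSMUSG00000039476, chromosome 2, plus strand) had 1 peak of 478 bp (chr2:30844191-30844668). Its pileup of 9.86 was the lowest in the list and was shared by 974 peaks, its fold enrichment was 2.96 and its q-value 0.0988, above the cutoff of 0.05 named for the peak calling. The deposited record of Prrx2 runs from 30834973 to 30881241 and places this peak inside the gene. The gene table starts Prrx2 at 30845064, which places the peak 0.395 kb upstream. The count of 7 marked genes with a peak over the body includes Prrx2 only by the former. The promoter table lists other starts than these sources, so that its windows for Prrx2 and Prrx1 lie inside the gene as placed above. The 250 bases before the listed start of Prrx2 (chr2:30845117-30845366, plus strand) held 21 CG dinucleotides, about as many as those of Msx1, and lay 448 bp from the peak. Those before the listed start of Prrx1 (chr1:163313651-163313900, minus strand) held 4. Both are shown as promoters without a peak.
Prrx1: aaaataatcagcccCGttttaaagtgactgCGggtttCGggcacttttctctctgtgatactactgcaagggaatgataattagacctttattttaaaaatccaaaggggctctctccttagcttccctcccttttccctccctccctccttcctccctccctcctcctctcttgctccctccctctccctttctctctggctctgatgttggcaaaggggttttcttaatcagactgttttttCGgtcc
Prrx2: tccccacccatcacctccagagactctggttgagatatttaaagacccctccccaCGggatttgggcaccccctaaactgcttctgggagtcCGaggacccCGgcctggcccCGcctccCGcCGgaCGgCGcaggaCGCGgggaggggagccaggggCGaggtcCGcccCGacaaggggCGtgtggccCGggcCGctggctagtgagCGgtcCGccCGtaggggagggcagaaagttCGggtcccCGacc

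Of the genes assigned here to the face, Alx1 had no peak and Alx4 and Barx1 were marked. Alx1 (chromosome 10, 103007847 to 103029549 in the gene table) was the farthest of the 9 genes from any peak, with the nearest 517 kb away. Its relative Alx4 (ENSMUSG00000040310, chromosome 2, 93642385 to 93681339, plus strand) had 3 peaks around its start and first part. The first, 4.24 kb wide, ended 402 bp upstream (chr2:93637743-93641983, 3.59-fold, pileup 12.28). The next, 5.03 kb wide, began 906 bp inside (chr2:93643291-93648316, 3.47-fold, pileup 12.83), and the last was lower and 3.94 kb wide (chr2:93650007-93653948, 3.20-fold, pileup 10.94). The q-values were 0.00762, 0.0084 and 0.037. Only 23.0% of the body of Alx4 lay under peaks, and the remaining 3′ part had none.

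Barx1 (ENSMUSG00000021381, chromosome 13, 48662999 to 48666507, plus strand) had the largest summed length within the reach of 5 kb, most of it in a peak outside the gene. A peak of 10.7 kb (chr13:48655330-48665992, 3.58-fold, pileup 13.07, q-value 0.00558) covered its start and most of its body, and a peak of 21.2 kb (chr13:48668411-48689611, 3.55-fold, pileup 13.11, q-value 0.00592) began past its end. All 250 bases before its RefSeq start (chr13:48662786-48663035, plus strand), the last of them inside the deposited record, lay under the first peak. They hold 40 CG dinucleotides, more than 98.3% of the promoters of protein-coding genes, and are shown as the promoter with the highest number among the 6 of the 9 genes whose promoter the table holds.
Barx1: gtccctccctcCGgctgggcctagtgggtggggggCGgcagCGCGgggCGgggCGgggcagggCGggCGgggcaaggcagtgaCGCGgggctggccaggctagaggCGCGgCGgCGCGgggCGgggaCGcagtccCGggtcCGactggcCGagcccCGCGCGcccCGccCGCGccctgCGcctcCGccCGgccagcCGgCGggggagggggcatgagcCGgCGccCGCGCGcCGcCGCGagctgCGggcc

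Limb and face genes overlapped in summed length, and in fold enrichment through Prrx2 only. The summed length was 0, 0.478, 17.6 and 31.3 kb for the 4 genes assigned to the limb (Prrx1, Prrx2, Shox2 and Pitx1), 0, 13.2 and 31.9 kb for the 3 face genes (Alx1, Alx4 and Barx1) and 21.4 and 25.8 kb for the Msx pair, which acts in both. The Prrx pair also acts in the face, and this assignment decides part of the comparison. The other limb and face genes were also each placed in a single domain, and other placements of them were not tried. Without the pair, the limb genes were Shox2 and Pitx1 at 17.6 and 31.3 kb, and no limb gene lacked a peak, while the values still lay within the range of the face genes. The highest fold enrichment per gene was 2.96, 3.64 and 3.89 among the limb genes with a peak, 3.58 and 3.59 among the face genes and 3.43 and 3.71 in the Msx pair. Without Prrx2 (2.96), the limb values of 3.64 and 3.89 lay above those of the face genes. With so few genes and no replicates, this difference was not tested.

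The 13 peaks ran from 2.96 to 3.89 in fold enrichment and from 9.86 to 13.95 in pileup. The lower of these pileups is also the lowest of the whole list. In the 7 peaks of 10 kb or more at these genes, the fold enrichment ran from 3.37 to 3.71 and the pileup from 12.33 to 13.77. All 670 peaks of this width in the list had quartiles of 3.40 and 3.60 in fold enrichment and of 12.14 and 13.11 in pileup. Of the 13 peaks, 10 had a q-value of at most 0.01 (76.9%), against 11.0% of all peaks, and 7 had a fold enrichment of at least 3.5 (53.8%), against 9.56%. Wide peaks of this list tend to be stronger, so width and q-value are not separate evidence.

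**Figure D2:**
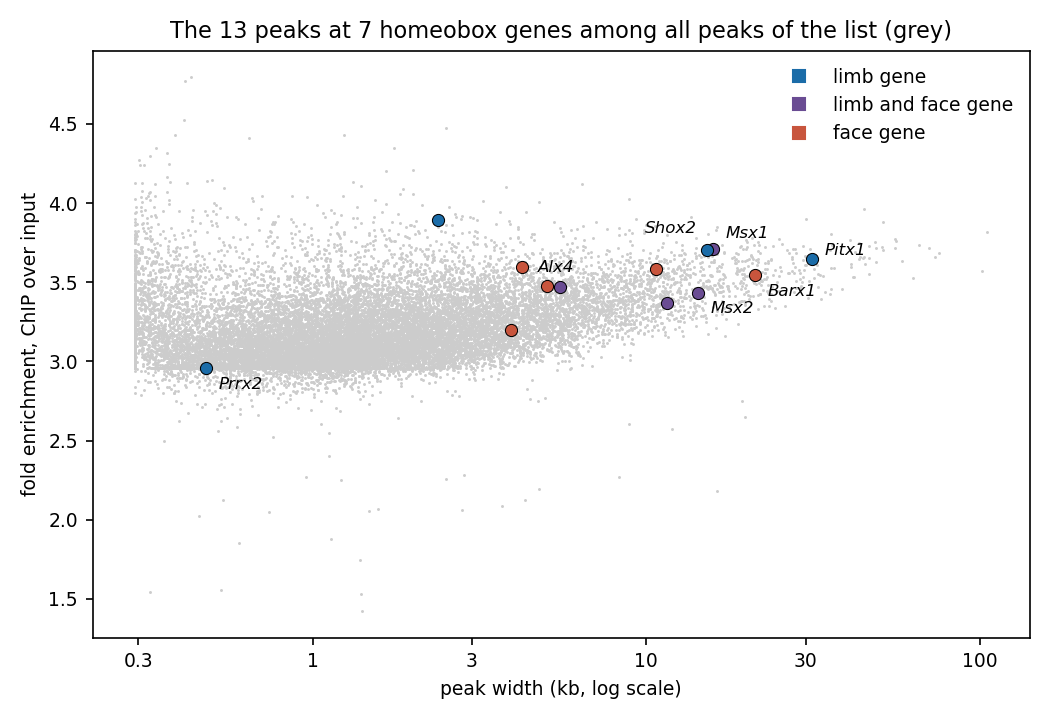
Fold enrichment of ChIP over input against peak width (kb, log scale) for the 13 peaks at the 7 marked genes (large points, coloured by expression domain, with the name at the widest peak of each gene) and all 19359 peaks (grey). The peak of Prrx2 sits at 0.478 kb and 2.96-fold at the lower edge of the cloud, and the 7 peaks of 10 kb or more lie between 3.37 and 3.71.

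The position of the gene start relative to the peaks split the marked genes. The 5′ end lay under a peak at Pitx1, Msx2 and Barx1, which is 3 of the 9 genes, against 4.45% of protein-coding genes. At Msx1, Shox2 and Alx4 it lay in an interval of 1871, 2128 and 1307 bp between a pair of flanking peaks. The start stood closer to the upstream peak at each of these 3 genes, by 168, 621 and 402 bp against 1704, 1508 and 906 bp to the downstream peak. Most starts in such intervals lay this way, with 60.4% of 591 gene symbols nearer to the upstream peak and 63.2% of the 261 with at least 10 kb of summed length. Prrx2 had its start neither under nor between peaks. In the whole list such a position was not rare. Of 4985 gene symbols with a peak, 11.9% had the 5′ end in an interval of at most 3 kb between peaks (95% Wilson interval 11.0 to 12.8%, which covers counting error only) and 22.5% under a peak. Among the 1133 symbols with at least 10 kb of summed length the shares were 23.0% (20.7 to 25.6%) and 50.8%. The intervals themselves held a gene start in 8.74% of 6441 cases, and in 22.2% of the 81 cases flanked by peaks of 10 kb or more on both sides. The limit of 3 kb was chosen after the positions at the 3 genes had been seen. No interval between peaks in the list was shorter than 1177 bp. A start in a shorter unmarked stretch would therefore count as under a peak, so the split depends on the peak calling too. Read coverage in these intervals was not analysed here, so an absence of the mark cannot be told apart from a signal below the calling threshold.

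**Figure D3:**
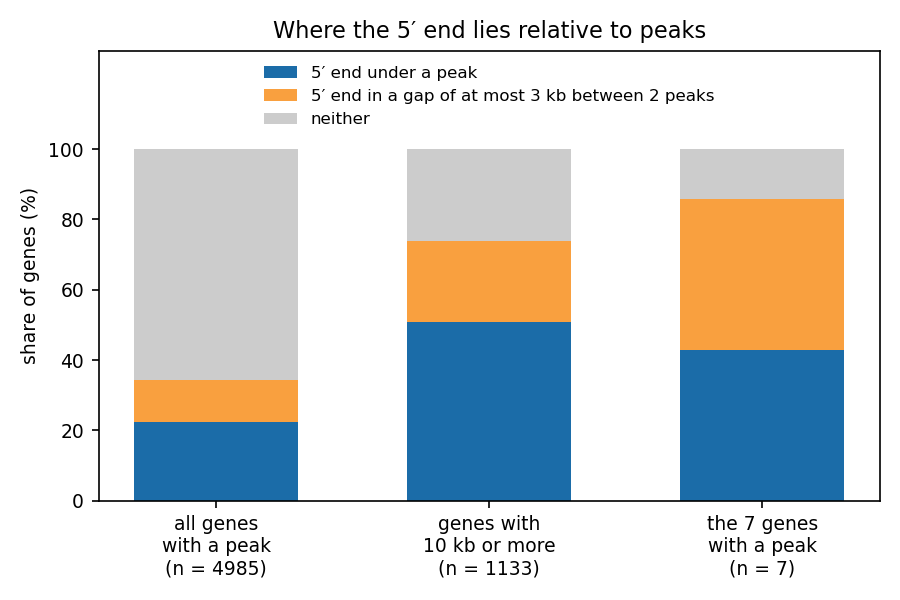
Share of genes (%) whose 5′ end lay under a peak, in an interval of at most 3 kb between 2 peaks, or neither, for all 4985 symbols with a peak, the 1133 with at least 10 kb of summed peak length, and the 7 homeobox genes with a peak. Among the 7, the states hold 3, 3 and 1 genes.

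The promoters of 6 of the 9 genes were searched on both strands for short motifs in the 250 bases before the start. TAATTA, a core site of homeodomain proteins that is its own reverse complement, was present at Msx2 and Prrx1 and in 4.31% of promoters of protein-coding genes. TAATTG, which shares 5 letters with it, was present in none of the 6 and in 6.28% of promoters. The TATA box TATAAA was present at Shox2 (11.6% of promoters), CCAAT at Msx1 and Msx2 (35.4%), and the E-box CANNTG, again its own reverse complement, at the same pair (62.8%). The GC box GGGCGG was present at all but Prrx1 (42.6%). A match describes the letters of this window and not binding. The number of CG dinucleotides was 16 and 40 in the promoters of Msx2 and Barx1, which lay under a peak, and 20 in that of Msx1, which did in part. It was 4, 11 and 21 in those of Prrx1, Shox2 and Prrx2, which had no base under a peak. The groups overlapped through Prrx2 alone. Over all genes the median was 10 both in the 849 promoters entirely under peaks and in the 20267 with no base under a peak.

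The surroundings of the genes were marked on different sides. Within 100 kb of the gene as the RefSeq gene table places it (which puts the peak of Prrx2 upstream, not in the body), peaks covered 72.8 kb at Msx1, 66.5 kb at Barx1, 50.01 kb at Pitx1, 39.1 kb at Msx2, 21.8 kb at Shox2, 18.8 kb at Alx4 and 1.82 kb at Prrx2. Msx1, Barx1 and Pitx1 exceeded 99.0%, 98.8% and 97.6% of protein-coding genes, whose median was 1.17 kb. At Msx1 the upstream side held 54.3 kb and the downstream side 16.1 kb. Pitx1 was alike, with 30.1 and 8.80 kb. The reverse order was present at Barx1, with 8.85 kb upstream and 54.7 kb downstream, at Msx2, with 13.7 and 20.8 kb, and at Shox2, with 2.37 and 10.8 kb. At Alx4 all of the flanking length, 9.82 kb, lay upstream.

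**Figure D4:**
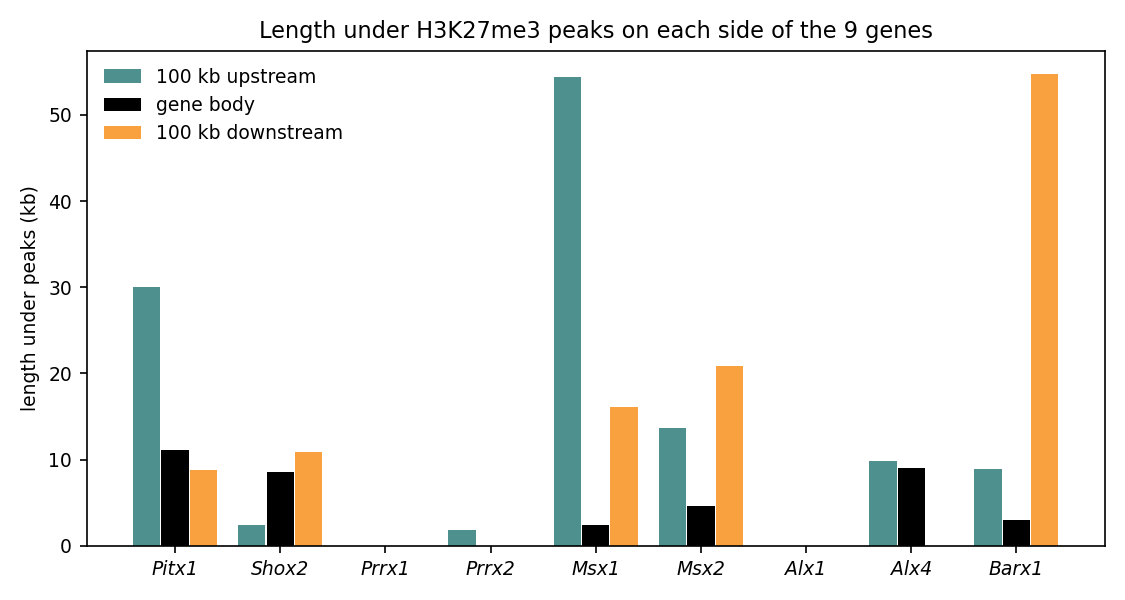
Length under H3K27me3 peaks (kb) in the 100 kb upstream of each of the 9 genes (green), in the gene body (black) and in the 100 kb downstream (orange), with gene positions from the RefSeq gene table. Msx1 and Pitx1 have more upstream than downstream (54.3 and 30.1 kb upstream), Barx1, Msx2 and Shox2 have more downstream (54.7, 20.8 and 10.8 kb), and Prrx1 and Alx1 have none.

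Neighbouring genes were marked about as often as genes in general. Of the 19 protein-coding genes within 100 kb of one of the 9 genes, 4 were marked, beside 20.7% of all protein-coding genes. These were Rsrc1 at Shox2, Catsper3 at Pitx1, and 1700001O22Rik and Ntmt1 near Prrx2. The neighbours of Msx1 and Msx2, among them Cytl1 and Sptlc1, had no peak within 5 kb, nor did Ext2 next to Alx4. Several non-coding genes lay under the domains. The antisense gene Msx1os, which overlaps Msx1, was entirely under a peak, Gm33763 over Msx2 was covered for 93.5% of its length, Gm36606 beside Barx1 for 78.1% and Gm36784 downstream of it for 60.1%. Their positions come from the gene table, and the peaks cannot be assigned to one of 2 overlapping genes.

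Barx2, Msx3 and Pitx3, relatives of Barx1, Msx1 and Pitx1, each had a peak, at summed lengths of 20.8, 19.3 and 17.5 kb. Other paralogues are not reported here, so these 3 give no share for the paralogues as a group. Msx1, Msx2 and Msx3 lay close together with all peaks counted, from 19.3 to 25.8 kb. At a q-value of at most 0.01 Msx2 fell to 14.3 kb and Msx1 stayed at 21.4 kb. At a fold enrichment of at least 3.5 they had 0 and 15.8 kb. Pitx1 had 31.3 kb beside 17.5 kb at Pitx3. Barx1 had 31.9 kb beside 20.8 kb at Barx2, both within the reach of 5 kb. Limited to peaks over the gene body, Barx1 had 10.7 kb, and Barx2 was not computed in that way. Lists of other transcription factors by textbook expression gave 10 of 12 marked genes for limb mesenchyme, 12 of 12 for face mesenchyme and 10 of 12 for trunk mesenchyme, beside 7 of 9 here and 20.7% of protein-coding genes. Neighbouring genes of a list can share a peak, such as a peak of 18.4 kb in the face list, so these genes are not all separate counts. The median summed length over all genes of a list was 34.8, 22.9 and 18.9 kb, beside 17.6 kb for the 9 genes, and the ranges (0 to 83.4, 2.54 to 46.3, 0 to 86.9 and 0 to 31.9 kb) overlapped throughout. The largest values were at Tbx5, which specifies the forelimb (83.4 kb), Tfap2a, a neural crest factor (46.3 kb), and Pax3, a factor of the dermomyotome (86.9 kb). Unmarked genes were Meis1 and Meis2 in the limb list and Foxc1 and Foxc2 in the trunk list.

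**Figure D5:**
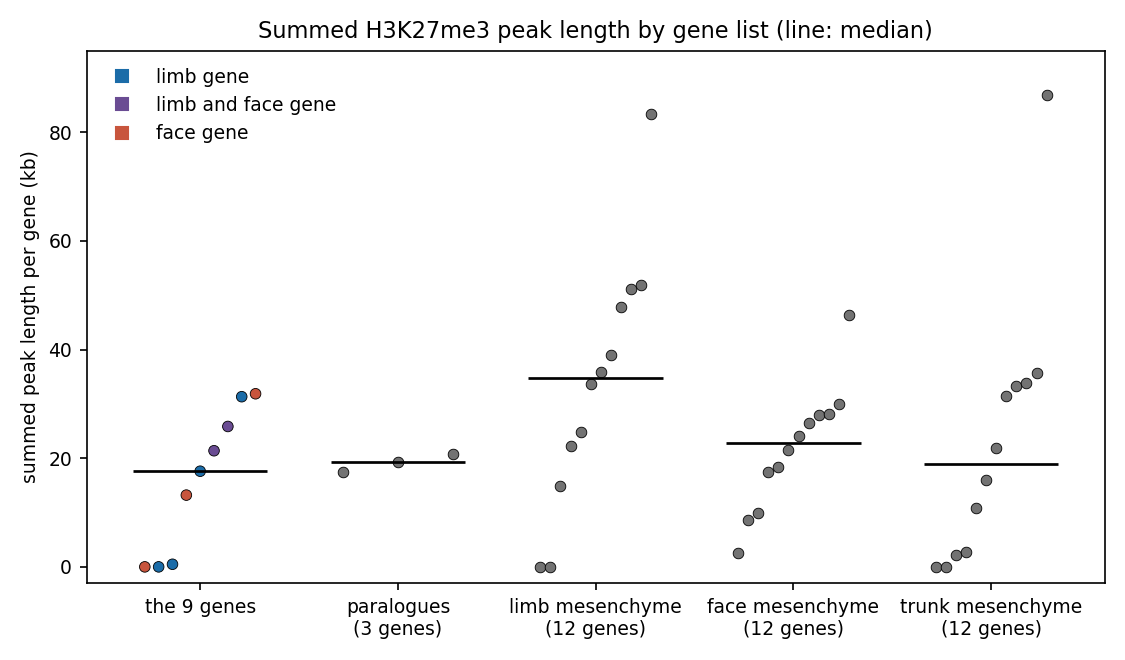
Summed H3K27me3 peak length per gene (kb) for the 9 homeobox genes (coloured by expression domain), 3 paralogues (Msx3, Pitx3 and Barx2) and 12 genes each of limb, face and trunk mesenchyme (grey), with the median of each list as a line. Medians run from 17.6 kb in the 9 genes to 34.8 kb in the limb list, and all lists overlap.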

How the data were processed

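Per the submitters' processing notes, CASAVA 1.8.4, Bowtie2 and MACS2 were used with the mouse build mm10 (GRCm38). Per the file headers, the authors called broad peaks on the trimmed, de-duplicated ChIP alignments against input with MACS 2.1.0.20140616, at a q-value cutoff of 0.05 and a fragment length of 294 bp. The pileup (coverage signal), the fold enrichment (a ratio, with 1 added to both sides) and the p-values and q-values (as −log10, averaged over each peak) are the deposited values, and the p-values were not used. Both deposited tables held the same position, pileup, fold enrichment and q-value for all 19359 peaks. The annotation table joins peaks to Ensembl genes within 5 kb. How that join was made is not given in the sources used here.

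Symbols joined by a semicolon were split, and older symbols were renamed through the RefSeq gene table (GRCm38.p6), which gave the background of 21887 protein-coding genes. Python 3.11.15, pandas 2.3.3 and scipy 1.17.1 were used. Interval functions were tested on simulated data. No count test was possible with 1 library per group. The 9 genes, the comparison lists and the thresholds were chosen with earlier results of these data known. The genes named are the 9, their nearest paralogues (some of which are not reported here), and in each list the gene with the largest summed length and the unmarked genes. All cell type markers are named too. Neighbouring genes were named after their values were seen. Domain assignment (limb, face or both) follows textbook expression. No reference genome was used.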

Additional observations from a re-analysis of the deposited data

How the results depend on the processing

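No paired analysis was possible because ChIP and input had 1 library each. In all, 10 alternatives gave 135 values over 14 results, and where no cause is given the cause was not tested. The number of marked genes stayed between 5 and 7 of 9 except when a peak had to cover the 5′ end, which left 3. Prrx2 dropped out at a q-value of at most 0.05 and at a width of at least 1 kb, and Msx2 too at a fold enrichment of at least 3.5. Prrx1 and Alx1 had no peak under any of the 10. The 13 peaks became 7 at a fold enrichment of at least 3.5, 8 when 500 bp of the gene had to be covered, 3 with the 5′ end covered, 22 with a reach of 20 kb and 7 domains when peaks within 5 kb were joined. The summed length of 141.7 kb fell to 56.3 kb when the 5′ end had to be covered. Joining raised the genes with a covered 5′ end from 3 to 6, since it fills the intervals at Msx1, Shox2 and Alx4. The share of all protein-coding genes with a peak (20.7%) was 16.4% at a q-value of at most 0.05, 5.90% at 0.01, 5.35% at a fold enrichment of at least 3.5, 17.0% at a width of at least 1 kb, 14.2% and 13.03% with an overlap of the gene body by any length or 500 bp, 4.45% with the 5′ end covered, and 22.02% and 32.9% with gene table positions at a reach of 5 and 20 kb. For the 7 marked genes, the summed length stayed within 1.5 times in 49 of 70 values. Barx1 fell to 10.7 kb in the 3 settings that required overlap of the gene or its 5′ end, since its wider peak lies downstream. Msx1, Shox2 and Alx4 fell to 0 with the 5′ end required, and Prrx2 fell to 0 in 6 settings. A gene below the lowest called pileup of 9.86 was not detectably marked at this depth.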

Other observations

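Joining peaks within 5 kb gave 1 domain at each of the 7 marked genes. The domain spanned 51.2 kb at Pitx1 (7 peaks), 36.8 kb at Barx1 (3 peaks), 35.96 kb at Msx1 (3 peaks), 34.4 kb at Msx2 (4 peaks), 27.3 kb at Shox2 (4 peaks), 20.1 kb at Alx4 (4 peaks) and 0.478 kb at Prrx2 (1 peak). Peaks filled 72.8% of the domain at Pitx1 and 72.9% at Alx4, and 91.3% at Msx1. Ordered by domain in place of summed peak length, Pitx1 stood above Barx1 and Msx1 above Msx2.

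Beyond the reach of 5 kb, the 100 kb around Msx1 held 19 further peaks, with a fold enrichment of up to 4.09, higher than at any of the 13 peaks joined to the 9 genes. Pitx1 had 12 and Barx1 11 such peaks, at up to 3.49-fold in each. Which gene these peaks belong to was not tested.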
